A study of Sus scrofa with 12 samples.

Results

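RAB GTPases are small membrane-bound switches that steer vesicles between the compartments of a cell, and TBC1D proteins are the main family that turns them off. The genes described here are those with a single platform-annotation symbol made of RAB, a number and at most 1 letter, or starting with TBC1D, RABGAP or RAB3GAP. There were 73 such genes among the 13755 genes named on the array: 44 RAB GTPases, 25 TBC1D genes and 4 RABGAP or RAB3GAP genes. They were measured by 138 probe sets, and each gene was represented by its probe set with the highest mean over all arrays. A single probe set measured 40 of the genes, and the other 33 had several, up to 6 for 1 gene.

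A RAB protein is switched on when an exchange factor (GEF) loads it with GTP, and then recruits effectors such as tethers, motors and golgins. A GTPase-activating protein (GAP), in most cases one with a TBC domain, makes it hydrolyse the GTP, after which the dissociation inhibitor GDI lifts it off the membrane through its prenyl anchor. In liver, this cycle serves the secretion of lipoproteins and plasma proteins, the uptake and recycling of receptors, lipid droplets, bile canaliculi and autophagy.

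Each of 12 pigs gave liver RNA at day 140 and had 1 Affymetrix array of the snowball design. Residual feed intake (RFI) is the feed a pig eats above or below what its growth and maintenance would predict, so low RFI stands for high feed efficiency. By the sample labels 6 pigs were low RFI and 6 were high RFI, each class held 3 males and 3 females, and no treatment other than this classification is given. The low RFI pigs were P307, P308, P309, P310, P323 and P324 and the high RFI pigs P301, P302, P303, P304, P317 and P318, of which P304, P310, P317, P318, P323 and P324 were females.

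All values are log2 intensities after robust multi-array averaging (RMA). Probe sets differ in how brightly they bind, so an order of their means is not an order of the genes' expression. Differences are low RFI minus high RFI by the labels. The paper uses the same sign convention but gives the reverse direction for TBC1D15, TBC1D12, TBC1D8B and RAB33A, so that its classes and those of the labels run opposite ways. The arrays had medians of 3.48 to 3.53 and correlated at 0.976 to 0.985 across probe sets. On the first principal component of all probe sets the high RFI pigs lay between 7.77 and 40.05, except P317, which lay at -28.15 within the range of the low RFI pigs (-37.54 to -8.73). The 9 hepatocyte markers had a mean of 11.61 in low RFI pigs and 11.60 in high RFI pigs. Averaged in each pig, the 4 measured Kupffer cell markers gave 7.75 to 8.34 in low RFI and 7.53 to 7.95 in high RFI pigs. An exact two-sided permutation test of this average gave p = 0.141. Of the 4 markers, CD163 differed by 0.68 (exact p = 0.0498, limma q = 0.540), C1QA by 0.07, MARCO by 0.00 and CD14 by -0.04. For the other cell types the marker averages differed by 0.29 (red blood cell), 0.10 (endothelial), 0.07 (lymphocyte) and 0.04 (neutrophil and mast cell). They differed by -0.16 (cholangiocyte) and -0.05 (stellate cell and fibroblast), and the exact p of these lists was 0.275 to 0.848. The part of cell composition in the results was not tested, and in whole liver fewer cells of a type cannot be told apart from less RNA per cell.

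TBC1D15 had the largest class difference and the smallest p of the 73 genes, each taken by its brightest probe set. It is a GAP of RAB7 that acts at late endosomes and, with FIS1, at mitochondria during mitophagy. Its single probe set, SNOWBALL_007178, read 5.28, 5.61, 5.18, 5.15, 5.57 and 4.98 in the low RFI pigs P307, P308, P309, P310, P323 and P324. In the high RFI pigs P301, P302, P303, P304, P317 and P318 it read 4.68, 4.40, 4.48, 4.44, 5.07 and 4.25. Thus 5 of 6 low RFI pigs lay above every high RFI pig, and the classes overlapped only through P324 and P317.

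TBC1D15 averaged 5.30 ± 0.25 in low RFI and 4.55 ± 0.29 in high RFI pigs (SD, n = 6 each by limma), a difference of 0.74 (SE 0.147, 95% interval 0.43 to 1.06) or 1.67-fold. The unadjusted p of limma was 0.000171, and the q-value over all 47845 probe sets was 0.374, which missed the threshold of 0.30. The study, which filtered probe sets on SD before testing, called this probe set at the same threshold. The exact two-sided permutation test over the 924 splits of the pigs gave p = 0.00433, where 0.00216 is the smallest p it allows. For the other genes below, the p beside a difference is from this exact test, while the counts use the unadjusted p of limma. The gene had been singled out with its difference known, so these values describe it and are no independent support. The difference was 0.65 in females and 0.84 in males, and in limma the interaction with sex did not pass (unadjusted p 0.550, q = 0.962).

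P317 was the high RFI pig closest to the low RFI level of TBC1D15. Without it the difference was 0.85 with q = 0.0829 by limma, in a fit that called 1345 of all probe sets in place of 15. Leaving out each pig in turn gave 0.68 to 0.85 with unadjusted p up to 0.000557. In the fits without a pig other than P317 the limma q was 0.344 to 0.72, which missed the threshold. The antigenomic background probe sets of the array, which match no pig sequence, averaged 3.63 ± 0.0415 in low RFI and 3.69 ± 0.0745 in high RFI pigs (exact permutation test, p = 0.128). With this background in the model TBC1D15 differed by 0.53 (limma q = 0.752), and the part of the background in the result was not tested further.

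Across the 73 genes, 7 were higher in low RFI pigs at an unadjusted p under 0.05 in limma and 0 were lower. These are 9.59% higher, against 4.68% of all named genes, and 0%, against 4.45% of all named genes. None of the 73 reached q under 0.30 (lowest q 0.374) and none did so after Benjamini-Hochberg adjustment, while 15 of all probe sets, or 0.0314%, reached that q. Positive differences were seen for 42 genes (57.5%, against 44.9% of all named genes) and negative ones for 31. The median difference was 0.03 over the members and -0.02 over all named genes, and the median size regardless of sign was 0.116 against 0.11. The classes did not overlap for 0 of the 73 genes, against 0.378% of all named genes.

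**Figure D1:**
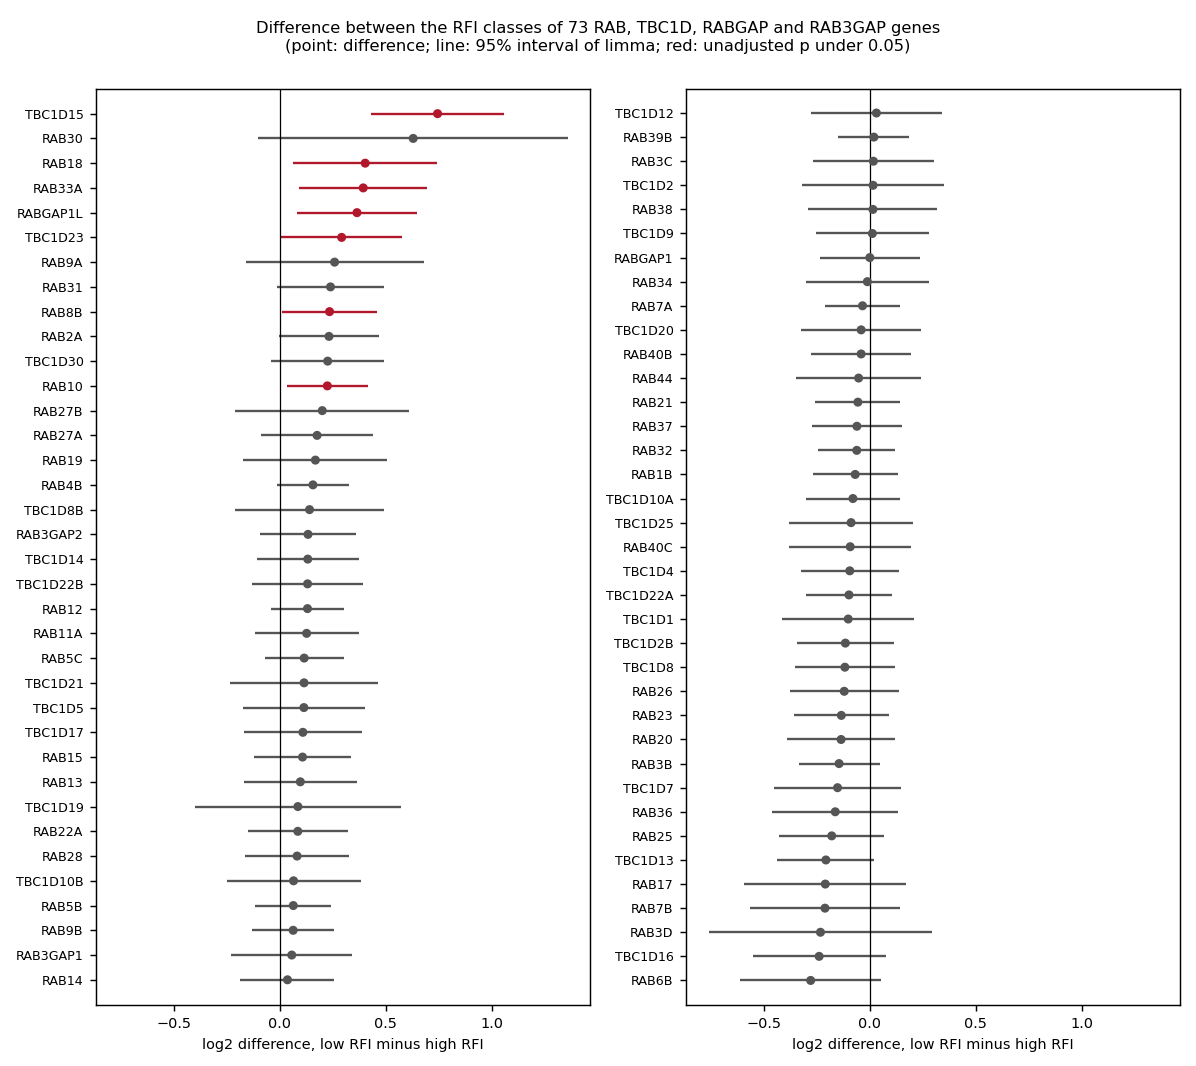
Log2 difference (low RFI minus high RFI) with its 95% interval from limma for each of the 73 genes, ordered by size in 2 columns. The 7 genes in red passed an unadjusted p of 0.05 and all lie to the right of 0, TBC1D15 at 0.74, while the most negative difference, RAB6B, is -0.28.

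The study's methods describe a filter on SD, read here as dropping, before testing, the 10% of probe sets that vary least over all pigs and the 10% that vary most within either class. The methods leave room for other readings, and this one dropped the third probe set of TBC1D8B, which the study lists as tested. Of all probe sets it kept 35844 and 952 of these were called. It kept 59 of the 73 genes, of which 4 were higher at q under 0.30 in limma and 0 lower: TBC1D15 (q = 0.00787), RAB33A (q = 0.249), RAB18 (q = 0.267) and RABGAP1L (q = 0.294). Among all kept genes 2.11% were called higher and 1.22% lower. The filter uses the class labels, as it drops probe sets by their SD within a class, so the q-values after it can come out too low. They describe that fit and are no separate support for these genes. The 14 genes left out included 4 for a high SD within a class, RAB30, RAB3D, RAB9A and TBC1D19. Without the filter the q-values of TBC1D15, RAB33A, RAB18 and RABGAP1L were 0.374, 0.534, 0.551 and 0.536, and of the alternatives tried only this filter called the last 3 of these genes. The study's own filtered fit called TBC1D15 and RAB33A at q under 0.30, but lists neither RAB18 nor the brightest probe set of RABGAP1L. It also called the dimmer probe set of TBC1D12, the third of TBC1D8B and the second brightest of RABGAP1L. EEA1, GCC2 and EVI5, described below, were among its calls too.

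The 6 further genes past an unadjusted p of 0.05 in limma differed by 0.22 for RAB10 to 0.40 for RAB18. RAB33A is a Golgi-linked RAB that can bind the autophagy protein ATG16L1. It read 2.98, 2.67, 3.57, 3.41, 3.22 and 2.90 in the low RFI pigs and 2.52, 2.87, 2.64, 2.74, 2.81 and 2.82 in the high RFI pigs, in the order given above. The lowest low RFI pig, P308, lay among the high RFI pigs and the other 5 above all of them. The means were 3.12 ± 0.34 and 2.73 ± 0.13, a difference of 0.39 (SE 0.141; exact p = 0.0238, limma q = 0.534). At this level RAB33A belongs to the 19 genes with a mean under 4. The background probe sets had means of 1.20 to 7.67, a range that holds RAB33A, TBC1D15 and the other genes past that p. These probe sets differ in their count of G and C bases (GC count 3 to 25), and they were not matched to the genes by it. The range is therefore not a single detection limit.

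RABGAP1L carries a TBC domain and has been described as a GAP of RAB22A. It read 6.72, 6.74, 6.77, 6.79, 7.24 and 6.44 in low RFI pigs against 6.55, 6.13, 6.18, 6.48, 6.60 and 6.57 in high RFI pigs. P324 was the only low RFI pig not above every high RFI pig, and P323 stood highest. The means of 6.78 ± 0.26 and 6.42 ± 0.21 differed by 0.36 (SE 0.132; exact p = 0.013, limma q = 0.536).

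RAB18 sits on the endoplasmic reticulum and on lipid droplets, and the RAB3GAP complex is its exchange factor. It read 6.81, 6.22, 5.83, 6.20, 6.52 and 6.08 in low RFI pigs and 6.09, 5.99, 5.57, 5.84, 6.13 and 5.62 in high RFI pigs. Here 4 of 6 low RFI pigs exceeded all high RFI pigs. The difference was 0.40 (SE 0.158; exact p = 0.0433, limma q = 0.551), with 0.41 in females and 0.40 in males. Both RAB3GAP subunits, RAB3GAP1 and RAB3GAP2, were measured too, with differences of 0.06 (exact p = 0.736) and 0.13 (exact p = 0.208).

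RAB10 and RAB8B are closely related and drive delivery of vesicles to the cell surface, RAB10 being the RAB that moves GLUT4 vesicles in fat cells. RAB10 read 6.69, 6.62, 6.53, 6.71, 6.76 and 6.49 in low RFI pigs and 6.35, 6.41, 6.49, 6.35, 6.63 and 6.22 in high RFI pigs, so that 3 low RFI pigs exceeded all high RFI pigs. The difference was 0.22 (SE 0.0898; exact p = 0.0173, limma q = 0.563). RAB8B read 6.45, 6.32, 6.26, 6.14, 6.15 and 5.90 against 6.10 or less in all high RFI pigs but P317, which read 6.14. Its difference was 0.23 (SE 0.105; exact p = 0.0368, limma q = 0.589), made up of 0.42 in males and 0.05 in females, with a limma interaction q of 0.962.

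TBC1D23 has a TBC domain without catalytic activity and bridges endosomal vesicles to golgins of the Golgi. It read 6.22, 5.94, 5.71, 5.74, 5.87 and 5.81 in low RFI pigs and 5.29, 5.29, 5.71, 5.48, 5.81 and 5.96 in high RFI pigs, and only P307 lay above all high RFI pigs. The difference was 0.29 (SE 0.134; exact p = 0.0736, limma q = 0.595), with 0.53 in males and 0.06 in females (limma interaction q = 0.962).

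**Figure D2:**
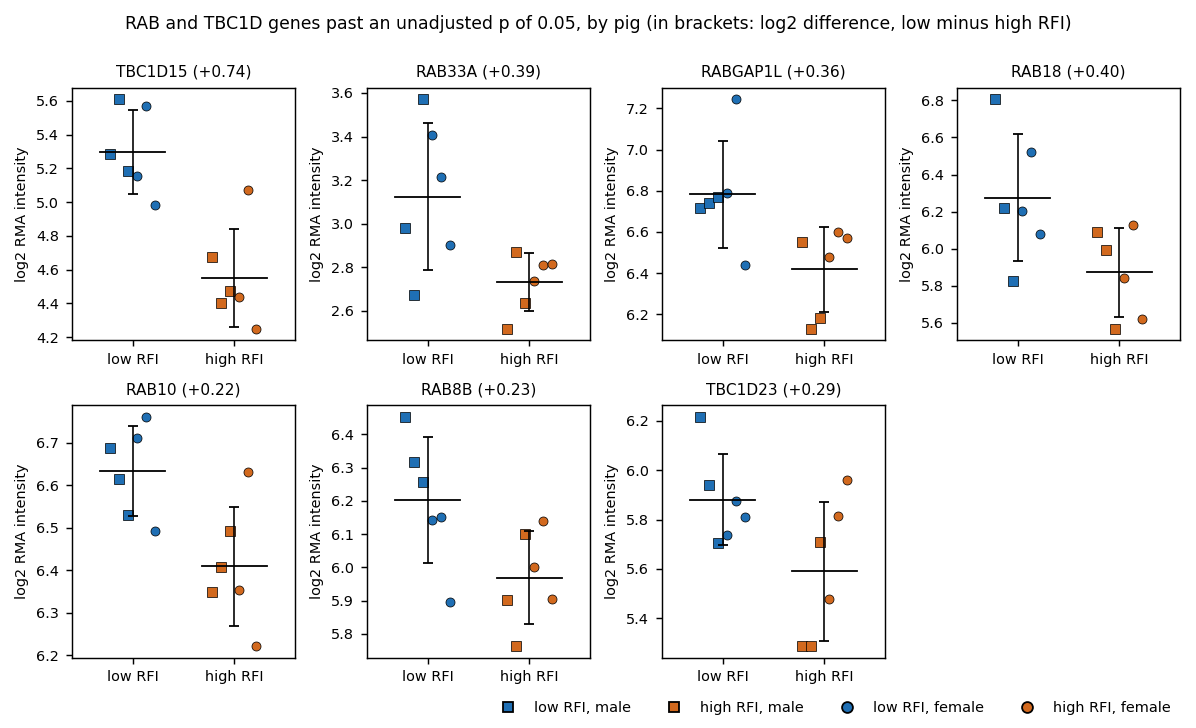
Log2 RMA intensity of each pig for the 7 genes past an unadjusted p of 0.05, with low RFI in blue, high RFI in orange, males as squares and females as circles. Horizontal bars are class means and whiskers are ± 1 SD (n = 6). TBC1D15 shows the largest difference, at 0.74. In TBC1D15, RAB33A, RABGAP1L and RAB8B 5 of 6 low RFI pigs lie above every high RFI pig, while in TBC1D23 only 1 of 6 does.

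TBC1D15, RAB33A and RABGAP1L kept an unadjusted p under 0.05 whichever pig was left out. RAB18 lost it without P303, P307, P318 or P323 (p up to 0.0567), and RAB10 without P310, P318 or P323 (p up to 0.0614). RAB8B kept it only without P303, P310, P317 or P324 (p up to 0.0983), and TBC1D23 only without P303, P309, P310, P317 or P318 (p up to 0.111). With the array background in the model 3 genes passed, TBC1D15, RAB33A and RAB31, against 2.86% of all named genes. In that fit RAB10 moved from 0.22 to 0.13 and RAB18 from 0.40 to 0.26.

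By role, 7 of the 8 measured RABs of the recycling route and of delivery to the surface had positive differences (44.9% of all named genes did), with a median of 0.12. RAB10 and RAB8B were 2 of 8 higher at an unadjusted p under 0.05, against 4.68% of all named genes. The role lists were made with results known and were not tested as sets. Of the others, RAB4B, which returns receptors quickly to the surface and did not pass in limma, stood at 5.59 ± 0.11 in low RFI and 5.44 ± 0.07 in high RFI pigs (0.16; exact p = 0.0108, limma q = 0.622). RAB11A, the RAB of the slow recycling endosome, differed by 0.13 on its brightest probe set (exact p = 0.303). On its dimmer ones it differed by 0.19 (exact p = 0.0238, limma q = 0.608) and 0.02 (exact p = 0.835). RAB25, an epithelial relative of RAB11A, was the negative one at -0.18 (exact p = 0.141).

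Among the 8 RABs of the endoplasmic reticulum and Golgi, RAB18 and RAB33A were higher at an unadjusted p under 0.05, 0 were lower, and 4 had negative differences. Over all named genes the shares were 4.68% and 4.45%. RAB2A, which acts between the endoplasmic reticulum and Golgi, read 6.89 ± 0.21 and 6.66 ± 0.15 (0.23; exact p = 0.0563). RAB6B, a Golgi RAB known mainly from neurons, was the most negative member at -0.28 (exact p = 0.128), at a level within the background range. RAB1B, which carries cargo from the endoplasmic reticulum to the Golgi, differed by -0.07 (exact p = 0.42).

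The early endosome, late endosome, secretory and remaining RABs held no gene past an unadjusted p of 0.05 in limma. In the early endosome group of 7 the differences ran from -0.21 for RAB17, an epithelial RAB, to 0.24 for RAB31, a RAB of trans-Golgi to endosome traffic. The 8 RABs of late endosomes, lysosomes and autophagy had a median of 0.02, and the 7 of regulated secretion had one of -0.06. The 6 RABs of cilia and other roles ranged from -0.13 to 0.17.

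The 5 genes with the highest means each differed by less than the median size of 0.116. RAB7A, the main late endosome RAB and a target of TBC1D15, read 9.55 to 9.77 in low RFI and 9.53 to 9.84 in high RFI pigs, a difference of -0.03 (95% interval -0.21 to 0.14). RAB5B and RAB5C, which organise early endosomes, differed by 0.06 (interval -0.12 to 0.24) and 0.11 (interval -0.07 to 0.30). RAB32, found at mitochondria and lysosome-related organelles, differed by -0.06 (interval -0.24 to 0.12), and RAB14, of the route between endosomes and Golgi, by 0.04 (interval -0.19 to 0.26). The classes overlapped in each of these 5 genes. Of the 73 genes only RAB7A, RAB5B, RAB32, RAB5C, RAB14 and RAB11A had a mean above every one of the 69 background probe sets, whose means ran from 1.20 to 7.67. As that range spans background probe sets of differing GC count, a mean inside it does not show that a gene was undetected.

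TBC1D1 and TBC1D4 are the GAPs that insulin and exercise signals switch off in muscle and fat to release GLUT4 vesicles, and RAB10 is among their targets. TBC1D1 read 5.17 to 6.19 in low RFI and 5.54 to 6.04 in high RFI pigs, a difference of -0.10 (95% interval -0.41 to 0.21; exact p = 0.541). TBC1D4 read 3.69 to 3.99 and 3.71 to 4.19, a difference of -0.09 (interval -0.33 to 0.14; exact p = 0.351). The classes overlapped in both genes, and the intervals include differences in either direction.

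Of the other GAPs linked to late endosomes none passed an unadjusted p of 0.05 in limma. TBC1D17, the closest relative of TBC1D15, read 6.58 ± 0.25 and 6.48 ± 0.21 (0.11; exact p = 0.437). TBC1D5, which acts on RAB7 together with retromer, differed by 0.11 (exact p = 0.433), and all 4 of its probe sets were positive. TBC1D2 and TBC1D2B differed by 0.01 (exact p = 0.909) and -0.12 (exact p = 0.262).

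TBC1D2, a RAB7 GAP also called Armus, had the smallest interaction p of sex and class (0.0153 unadjusted, limma q = 0.962), at 0.37 in females and -0.34 in males. It read 3.93 to 4.32 in low RFI females, 3.54 to 3.92 in high RFI females, 3.47 to 3.89 in low RFI males and 3.78 to 4.20 in high RFI males. It was 1 of 73 genes past an unadjusted p of 0.05 in that test, against 4.25% of all named genes, so the count does not stand above the background. TBC1D16, a GAP of RAB4, followed at -0.51 in females and 0.03 in males (limma q = 0.962).

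Of the 18 remaining TBC1D genes only TBC1D23 passed (5.56% higher, against 4.68% of all named genes). The range ran from TBC1D16 at -0.24 (exact p = 0.16) to TBC1D23, with a median of 0.02. TBC1D13, which has been described as a GAP of RAB35, read 6.40 ± 0.13 and 6.61 ± 0.20 (-0.21; exact p = 0.0714). Its dimmer probe set differed by 0.03 (exact p = 0.838).

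**Figure D3:**
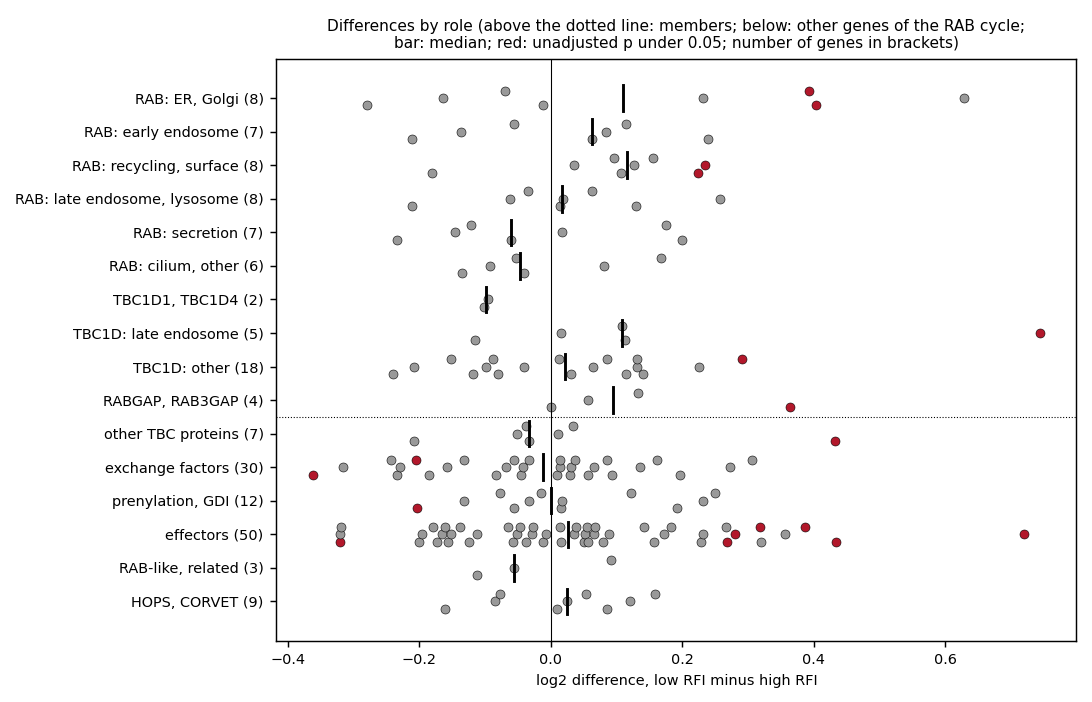
Log2 difference (low RFI minus high RFI) of each gene by role, with the 73 members above the dotted line and other genes of the RAB cycle below it. Bars are medians and red marks an unadjusted p under 0.05. Of the 8 recycling and surface RABs 7 lie right of 0, and of the 30 exchange factors 15 do.

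Where a gene had several probe sets, these often disagreed. All probe sets had the same sign in 21 of 33 genes, and the median range of differences within a gene was 0.185. Over all 138 probe sets 12 were higher at an unadjusted p under 0.05 (8.70%, against 4.45% of all named probe sets), and 1 was lower (0.725%, against 3.78% of all named probe sets). The lower one was a dim probe set of RAB3B, a secretory vesicle RAB, at -0.23 (exact p = 0.0346).

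In RABGAP1L all 6 probe sets were positive but differed in size. The second brightest probe set differed by 0.63 (5.28 ± 0.30 against 4.65 ± 0.35; exact p = 0.00649, limma q = 0.464), more than the brightest at 0.36. The other 4 differed by 0.09, 0.02, 0.07 and 0.00. RAB18 differed by 0.40 on the brighter and 0.02 on the dimmer probe set, and RAB10 by 0.22, 0.10 and 0.01 from bright to dim. In TBC1D23 the order was 0.29, 0.46 (exact p = 0.117) and 0.02. In TBC1D10A, described as a GAP of RAB27 and RAB35, the dimmer probe set differed by 0.64 (exact p = 0.0649) and the brighter by -0.08.

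TBC1D12, a RAB11-binding TBC protein, differed only on its dimmer probe set. This read 2.77, 2.33, 3.05, 2.47, 1.87 and 2.41 in low RFI pigs and 1.85, 1.71, 1.79, 1.91, 1.52 and 2.24 in high RFI pigs. Only P323 of the low RFI pigs fell among the high RFI pigs, and the difference was 0.64 (SE 0.174; exact p = 0.00649, limma q = 0.461). The brighter probe set stood at 2.31 ± 0.18 and 2.28 ± 0.33, a difference of 0.03 (exact p = 0.859). Both lie within the range of the background probe sets.

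TBC1D8B, a gene in which variants cause nephrotic syndrome in humans, had 4 probe sets with differences of 0.14 (exact p = 0.5), 0.23 (exact p = 0.286), 0.62 (exact p = 0.0173) and 0.12 (exact p = 0.639) from bright to dim. The third read 2.89, 2.96, 3.12, 2.91, 4.05 and 3.21 in low RFI pigs and 2.40, 2.20, 2.40, 2.50, 3.19 and 2.72 in high RFI pigs. P323 was the highest of all pigs on each of the 4 probe sets, and without it the third differed by 0.45.

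**Figure D4:**
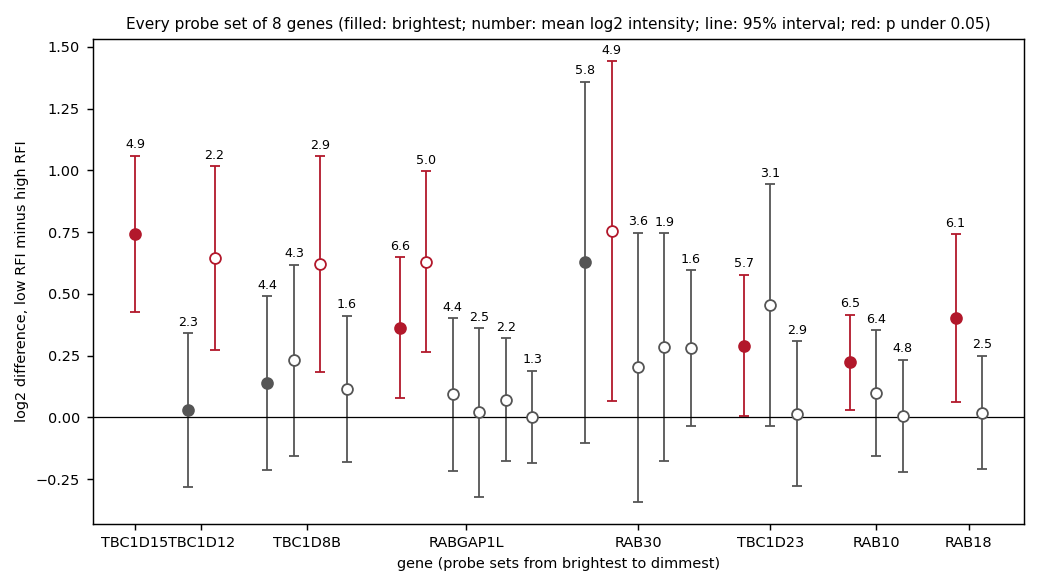
Log2 difference (low RFI minus high RFI) with its 95% interval for every probe set of 8 genes, from brightest to dimmest, with the mean log2 intensity printed above. Filled points are the brightest probe sets and red marks an unadjusted p under 0.05. TBC1D15 has 1 probe set, while RABGAP1L has 6, of which 2 are red and 4 lie near 0.

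RAB30, a RAB of the Golgi, varied most among pigs, with an SD of 0.733 over all arrays against a median of 0.211 for the members and 0.227 for all named genes. Its brightest probe set read 5.46, 5.54, 5.92, 5.78, 7.82 and 5.90 in low RFI pigs and 5.36, 5.52, 5.31, 4.76, 5.98 and 5.73 in high RFI pigs. P323 stood apart at 7.82, and the difference was 0.63 (95% interval -0.10 to 1.36; exact p = 0.102), or 0.28 without that pig. On the second probe set the low RFI pigs read 4.65, 4.59, 5.37, 4.86, 7.01 and 5.28 and the high RFI pigs 4.46, 4.42, 4.54, 4.42, 4.80 and 4.60, a difference of 0.75 (exact p = 0.0152), or 0.41 without P323. P323 was highest on all 5 probe sets of the gene.

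**Figure D5:**
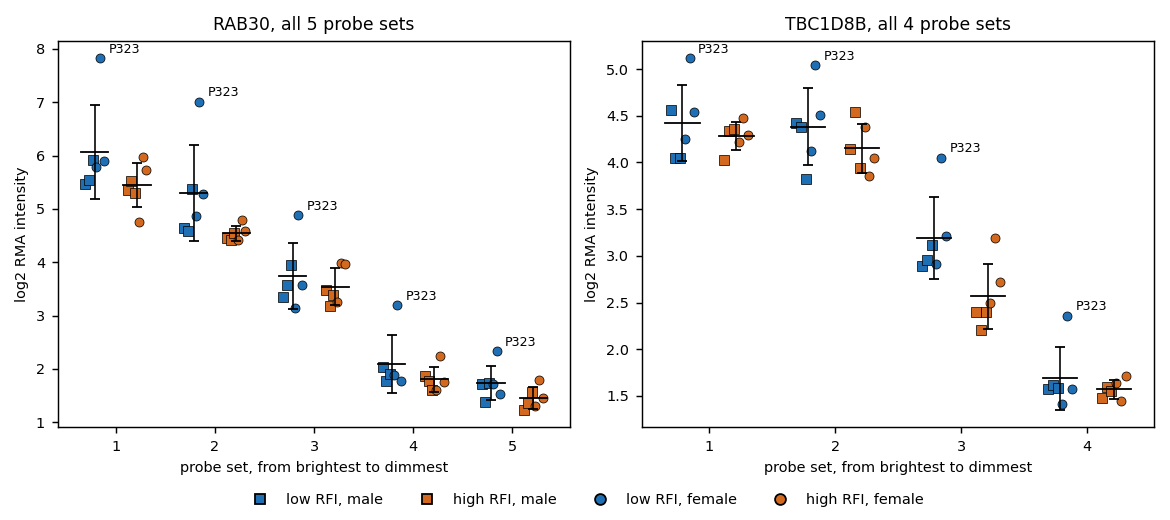
Log2 RMA intensity of each pig for all 5 probe sets of RAB30 and all 4 of TBC1D8B, from brightest to dimmest, with low RFI in blue, high RFI in orange, males as squares and females as circles. Bars are class means and whiskers ± 1 SD (n = 6). The low RFI female P323 is highest on every one, at 7.82 on the brightest probe set of RAB30.

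The other variable members did not separate the classes. RAB3D, a RAB of secretory granules, read 4.11 to 5.47 in low RFI and 4.70 to 6.08 in high RFI pigs (-0.23; exact p = 0.45). TBC1D19 read 2.74 to 3.91 and 2.65 to 3.76 (0.08; exact p = 0.734).

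RAB9A, which returns mannose 6-phosphate receptors from late endosomes to the Golgi, read 6.73 to 7.45 and 5.97 to 7.29 (0.26; exact p = 0.258). It had the smallest p for sex of the members, with 7.03 in females and 6.60 in males, a difference of 0.43 (SE 0.164, limma q = 0.734). RAB3B read 3.06 in females and 3.25 in males (limma q = 0.741), and RABGAP1, a GAP first described at the centrosome, read 6.31 and 6.10 (limma q = 0.762). These 3 of 73 genes compare with 7.08% of all named genes past an unadjusted p of 0.05 for sex, and none reached q under 0.30.

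Of the other genes of the RAB cycle, effectors held most of those past an unadjusted p of 0.05 in limma, with 6 higher and 1 lower of 50 measured. EEA1, the tether that RAB5 recruits to early endosomes, read 6.32, 6.37, 6.59, 5.90, 6.39 and 6.04 in low RFI pigs and 5.87, 5.01, 5.26, 5.25, 6.10 and 5.78 in high RFI pigs. That is a difference of 0.72 (SE 0.183; exact p = 0.00866, limma q = 0.443), with overlap only through P317. GCC2, a golgin of the trans-Golgi, differed by 0.43 (exact p = 0.0195).

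RAB11FIP3, an effector of RAB11, was the effector with the lower values. It read 4.77 to 5.03 in low RFI and 5.06 to 5.54 in high RFI pigs (-0.32, SE 0.0927, limma q = 0.490). The classes did not overlap, as in 1 of the 50 effectors and 0.378% of all named genes. The exact p of 0.00216 is the smallest possible and is what any such separation gives. EVI5, a TBC protein that binds RAB11, was the only one of 7 TBC proteins under other names to pass in limma, at 0.43 (6.04 ± 0.17 against 5.61 ± 0.24; exact p = 0.00433, limma q = 0.484).

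Of 30 measured exchange factors 0 were higher and 2 lower, with 15 positive and 15 negative differences. RABIF, a chaperone of nucleotide-free RABs, differed by -0.36 (exact p = 0.0346), and RGP1, part of the exchange factor of RAB6, by -0.21 (exact p = 0.0281). Of 12 genes of prenylation and GDI only RABAC1, which helps release RABs from GDI, passed, at -0.20 (exact p = 0.013), while GDI2 differed by -0.03 (exact p = 0.736). None of 9 HOPS and CORVET tether subunits and none of 3 RAB-like or related GTPases passed. Of all named genes 4.68% were higher and 4.45% lower, against 12% and 2% of the effectors and 0% and 6.67% of the exchange factors.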

How the data were processed

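The authors deposited RMA log2 values of 47845 probe sets, made from scans in GCOS 1.1.1 and used here as given. For the RNA, the paper names a TRI reagent extraction and the labels Qiazol with an RNeasy column. Each array is 1 pig. Arrays have no depth, and the 6 pigs per class limit the precision.

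The platform annotation gives 26426 probe sets a gene symbol, and all 73 member symbols were in the RefSeq table. Class differences were fitted in R 4.3.3 with limma 3.58.1 on all probe sets with RFI class alone and no SD filter. Storey's q-value (lambda 0.05 to 0.9) was called under 0.30. Single values were also tested by exact two-sided permutation over the 924 splits of the pigs. Sex was fitted with class, and then with the interaction. The scripts were tested on simulated data. By the paper, siblings of the same sex but of divergent RFI were chosen. The sample labels name neither litter nor sibling, so pigs could not be paired, and neither limma nor the permutations take this relatedness into account.

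Members, role lists and tests were chosen with earlier results of these data known. Named genes are all TBC1D15 probe sets, members past an unadjusted p of 0.05, TBC1D12, TBC1D8B and RAB33A, the 5 brightest and 5 most variable, the 3 with the smallest p for sex and for the interaction, TBC1D1 with TBC1D4, and up to 3 genes per other list. Other genes were named after their values were seen. Alternatives changed the filters, covariates, weights, variance model, scaling and probe set rule, used 1 sex, or left out 1 pig. No sequences or coordinates are printed.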

Additional observations from a re-analysis of the deposited data

Results flagged for a closer look

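The gap test of Dixon at the 95% level was applied to 56 class groups of the 28 probe sets tested. It set 1 pig apart in 3 groups. Chance alone sets one apart in about 1 in 20 groups, but that rate does not apply directly here. Some genes, RAB30 among them, were included for their large SD, and probe sets of 1 gene are not separate cases. All 3 were the low RFI female P323. RAB30 read 7.82 in P323 on its brightest probe set, against 5.46 to 5.92 in the other low RFI pigs. TBC1D8B read 4.05 in P323 on the probe set SNOWBALL_001800, against 2.89 to 3.21, and 2.36 on SNOWBALL_035183, against 1.42 to 1.62.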

How the results depend on the processing

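TBC1D15 kept its direction and an unadjusted p under 0.05 in all 22 alternatives, and q fell under 0.30 in 5 of them. Among these 5 is the fit with the filter on SD, which uses the class labels and is no separate support. The count of members called at q under 0.30 was 0 as reported. It was 4 of the 59 kept with the filter on SD, against 3.33% of named genes in that fit. It was 1 without dim probe sets (mean under 4), against 1.3%, and 1 with array weights, against 0.0654%. With the mean of a gene's probe sets it was 1 (share of all genes not computed), and with a pig left out 0 to 2. The 2 of 73 without P317 were TBC1D15 and RAB10, in a fit that called 1345 of all probe sets in place of 15 and 3.74% of named genes in place of 0.0436%. The count higher in low RFI pigs was 7 as reported, against 4.68% of all named genes. It was 3 with background probe sets in the model (2.86% of all named genes) and 2 in females only (1.71%). It was 4 to 7 when a pig was left out (4 without P318 or P323, with 4.43% and 4.08% of all named genes). The count lower was 0 as reported, against 4.45% of all named genes. It was 2 in females only (RAB6B and TBC1D16), against 1.64%, and 1 with the mean of a gene's probe sets (RAB6B). It was 0 to 2 when a pig was left out. These were 2 without P301 and 1 without P308, P309, P310 or P323, against 4.11% to 4.49% of all named genes. The median difference of the members, 0.0308, was 0.0157 to 0.0716 when a pig was left out, the highest without P301. The cause of these changes was not tested. The filters test fewer probe sets, and the filter on SD also drops probe sets by their SD within a class. The single-sex fits use 6 pigs. Of the named differences 10 changed sign, none of them past an unadjusted p of 0.05 in limma before or after. In males only, TBC1D8B fell from 0.14 to -0.0262 on the brightest and from 0.231 to -0.00143 on the second probe set, TBC1D2 from 0.015 to -0.336, and TBC1D16 and TBC1D1 moved from -0.239 to 0.0336 and from -0.102 to 0.0506. In females only TBC1D19 moved from 0.0848 to -0.257. RAB14 moved from 0.0357 to -0.0527 with the background in the model. RABGAP1, at -0.00034, was 0.00298 with array weights, 0.00701 with arrays centred on the median and 0.134 in females only. With a pig left out the range was -0.0419 to 0.149 for the brighter probe set of TBC1D12, -0.0166 to 0.0927 for RAB14, -0.0611 to 0.23 for TBC1D19, -0.0681 to 0.0479 for RABGAP1, -0.075 to 0.0955 for TBC1D2, -0.198 to 0.00626 for TBC1D1 and -0.0173 to 0.171 for the dimmest probe set of TBC1D8B. No paired analysis was possible because the labels do not say which pigs are siblings and the replicate numbers only name the pigs. For the 19 members with a mean under 4, signal near the array background limits what can be seen.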

Other observations

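P307 had the highest value of all pigs in 11 of the 73 genes and P323 in 10 (15.1% and 13.7%, against 8.62% and 9.96% of all named genes). The high RFI pig P301 had it in 9 (12.3%, against 7.34% of all named genes). P302 had the lowest value in 11 (15.1%, against 9.07% of all named genes). Next came the high RFI pig P318 and the low RFI pig P324 with 8 each (11%, against 8.27% and 8.91% of all named genes). P323, the highest pig on all probe sets of RAB30 and TBC1D8B, was the lowest of its class, at 1.87, on the dimmer TBC1D12 probe set.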
